A study of Macaca fascicularis with 6 samples.

Results

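ATP-sensitive potassium channels were followed through the lung cells of cynomolgus monkeys by the RNA of their 4 subunits, ABCC8, KCNJ11, ABCC9 and KCNJ8. The members were taken by gene symbol, 1 gene each, out of 28623 genes listed in the count files, of which 21095 carried a symbol. With these data in view, the members were chosen by the level of ABCC8 in control and asthma stromal cells and by the cell types that held the others, so all values of the 4 genes are a description with no test. UMIs, the molecules counted once each by their tag, were found for 3 of the 4 in the cells kept after quality control: 221 of ABCC8 in 163 cells, 441 of ABCC9 in 336 cells and 307 of KCNJ8 in 249 cells, out of 24235 cells.

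An ATP-sensitive potassium channel joins pore-forming inward rectifier subunits, encoded by KCNJ8 or KCNJ11, with sulfonylurea receptors, encoded by ABCC8 or ABCC9. The channel is closed by ATP and opened when ATP falls or when kinases downstream of vasodilator receptors act on it, and its opening draws the membrane potential down, which keeps voltage-gated calcium channels shut and relaxes the muscle of vessels. KCNJ8 with ABCC9 is known as the channel of pericytes and vascular smooth muscle, whereas ABCC8 with KCNJ11 is known from insulin-secreting cells and neurons.

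Lungs came from 6 male monkeys aged 3 to 5 years, of which 3 were control animals (numbered 1, 2 and 3) and 3 asthma animals (numbered 8, 10 and 11), with 1 droplet-based 3′ library per monkey. Asthma monkeys were sensitised under the skin to Ascaris suum antigen with adjuvant at 1 mg/mL and challenged through the nose at 10 mg/mL, last in week 11, and control monkeys received saline in the same amounts. The tissue was digested with enzymes and depleted of red and dead cells, so the shares of cell types are those of the cells that survived this. Between 3200 and 4620 cells per library were kept, with medians from 3835 to 5048.5 UMIs per cell.

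Cells were clustered without the 4 subunits among the genes used, and clusters were named from marker lists, ending in -like. Epithelial-like cells led by SFTPC, SCGB3A2 and SCGB1A1 were present, as lung tissue should hold them. Stromal-like cells, which include the endothelial and mural cells, numbered 2325 and were split further. Another 232 cells of mixed sub-clusters, led by T cell or macrophage genes, were left out of them. A sub-cluster of 324 cells led by SEMA3G, TMEM88, MCF2L and NOSTRIN was left unnamed, since it carried both larger-vessel markers (SEMA3G at 1089 CPM) and capillary markers (HPGD at 2747 CPM), while the capillary marker EDNRB was at 6.86 CPM against 891 CPM in capillary EC-like cells. It is called SEMA3G-led here. CPM is the field's usual scale for a gene's UMIs relative to all UMIs of a cell group, and is not divided by gene length since 3′ libraries count ends. Its cells carried the endothelial markers PECAM1 at 2469 CPM, CDH5 at 996 CPM and EGFL7 at 3089 CPM, against 4401, 1062 and 4387 CPM in capillary EC-like cells.

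Some libraries stood apart. Asthma replicate 11 gave 944 of the stromal-like cells, 23.4% of its kept cells, whereas the other libraries had between 3.48% and 9.82%. Of the 158 pericyte-like cells, 124 came from asthma replicate 11 and 2 from the control group. Control replicate 2 held 11124 UMIs of HBB, a haemoglobin gene of red cells, of the 11403 in all libraries. Pairs of libraries shared at most 0.272% of their cell barcodes.

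KCNJ11, the pore subunit that usually accompanies ABCC8, had 0 UMIs in all 35133 barcodes of the 6 libraries, which allows a level of up to 0.0138 CPM at 3 UMIs in all. The limit was higher in the cells that hold ABCC8, at 3.43 CPM in SEMA3G-led and 2.76 CPM in capillary EC-like cells over the libraries pooled. KCNJ11 was listed in every file, and 3907 of the genes with a symbol (18.5%) were likewise at 0. In the RefSeq annotation of another assembly (T2T-MFA8v1.1), ABCC8 and KCNJ11 are neighbours on chromosome 14 with no protein-coding gene between their starts, and ABCC9 and KCNJ8 are neighbours on chromosome 11. These limits hold only where the 3′ end of KCNJ11 is placed rightly in the reference used for counting, which was not tested, and a count of 0 does not show that KCNJ11 RNA was absent.

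ABCC8 lay in other cells than KCNJ8 and ABCC9. It was concentrated in cells with endothelial markers, with 66.5% of its UMIs in SEMA3G-led cells and 14.9% in capillary EC-like cells. KCNJ8 and ABCC9 lay mostly in fibroblasts, mural cells and mesothelial-like cells, which line the lung surface. Of the KCNJ8 UMIs, 36.8% were in fibroblast-like and 26.1% in pericyte-like cells, and of the ABCC9 UMIs 45.8% and 20.6%. Mesothelial-like cells held 66 of the 441 ABCC9 and 23 of the 307 KCNJ8 UMIs, and F5-led larger-vessel EC-like cells another 23 of KCNJ8.

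**Figure D1:**
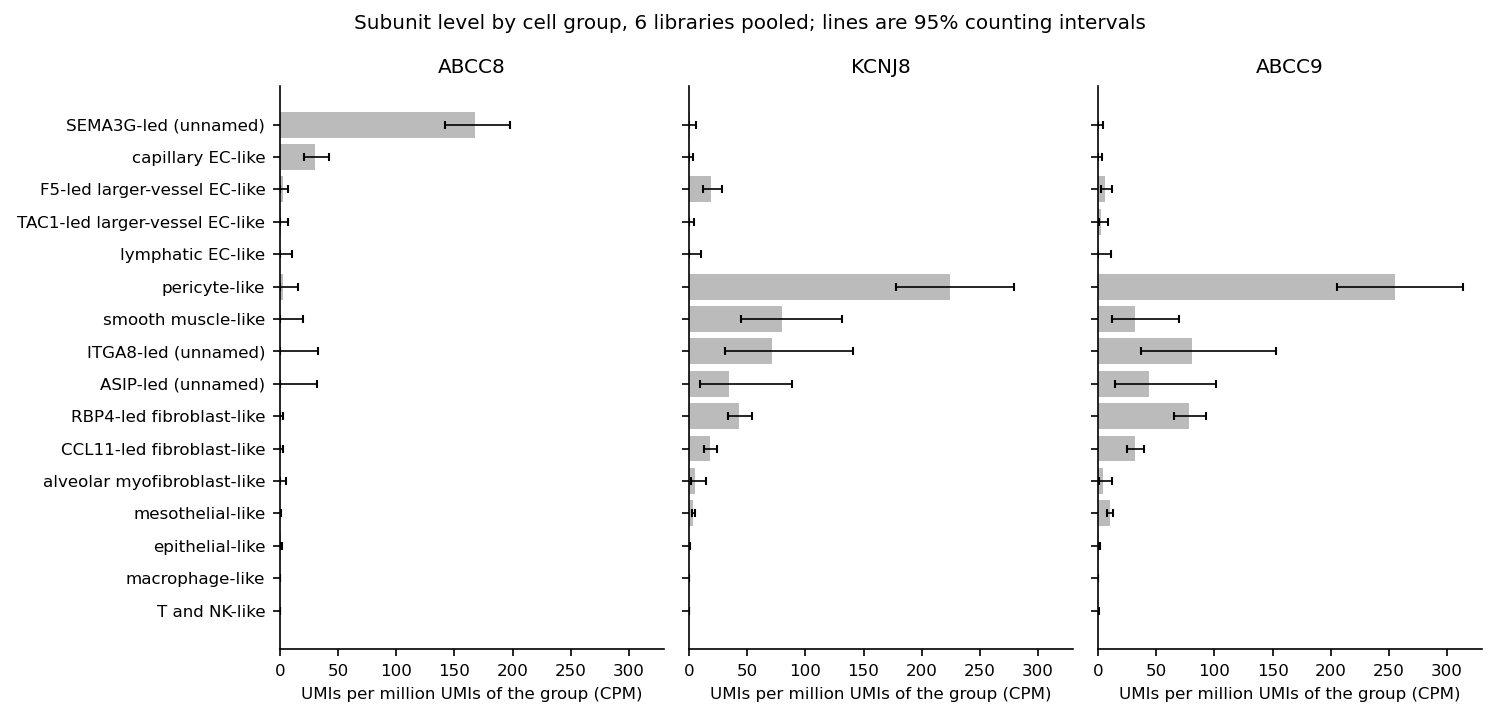
Level of ABCC8, KCNJ8 and ABCC9 by cell group, as CPM of the group over the 6 libraries pooled, with 95% exact Poisson intervals that cover counting error only. ABCC8 stands at 168 CPM in SEMA3G-led cells, while KCNJ8 and ABCC9 stand highest in pericyte-like cells, at 225 and 255 CPM.

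ABCC8, a sulfonylurea receptor, reached 168 CPM in SEMA3G-led cells (95% counting interval 142 to 198) and 30.3 CPM in capillary EC-like cells (20.9 to 42.6). Intervals of this kind cover counting error only, since cells of a library are not replicates. The other endothelial cells were far lower, with 3 UMIs in F5-led larger-vessel EC-like cells (2.45 CPM), 1 in TAC1-led larger-vessel EC-like cells and 0 in lymphatic EC-like cells. In pericyte-like cells 1 ABCC8 UMI was counted, and in smooth muscle-like and RBP4-led fibroblast-like cells 0. Among 21095 genes with a symbol, ABCC8 ranked 7 by its fold between SEMA3G-led and other stromal-like cells, with 10 CPM added to both, and 70 against all other kept cells. In capillary EC-like cells the same ranks were 1784 and 587. It was not among the genes used for clustering, but the clusters come from the same cells.

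At least 1 ABCC8 UMI was seen in 99 of 324 SEMA3G-led cells (30.6%) and in 28 of 350 capillary EC-like cells (8.0%). Free RNA in droplets sets a background, for which T and NK-like cells gave 2 of 10138 cells (0.0197%), at a median of 3659.5 UMIs per cell against 2321 in SEMA3G-led and 2882.5 in capillary EC-like cells. With every cell thinned to 2000 UMIs, the shares were 27.7% of the 188 SEMA3G-led cells deep enough, 5.88% of 238 capillary EC-like cells and 0.0108% of 9258 T and NK-like cells. Of the 163 cells with ABCC8, 128 held a single UMI, 35 held at least 2 and the highest held 5. Cells with the highest doublet scores made up 7.98% of the cells with ABCC8, 6.43% of those with KCNJ8, 3.27% of those with ABCC9 and 3.27% of all cells. With these cells removed and the rest clustered again, SEMA3G-led cells held 71.6% of the ABCC8 UMIs, fibroblast-like cells 38.8% of the KCNJ8 and 47.3% of the ABCC9 UMIs, and pericyte-like cells 26.6% of the KCNJ8 UMIs. Their part in the counts of cells with both KCNJ8 and ABCC9 was not tested.

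ABCC8 is also known from neuroendocrine cells. Of 9 pulmonary neuroendocrine genes with a row in the files, 3 had a UMI in SEMA3G-led cells, 6 UMIs in all, and CHGB, GRP, CALCA, INSM1 and SCG5 were among those at 0. CHGA was the most abundant, with 4 UMIs, all in control replicate 1. The list summed to 192 CPM in SEMA3G-led cells of control replicate 1, 4.18 CPM in those of asthma replicate 11 and 0 in those of control replicate 3 and asthma replicates 8 and 10. In capillary EC-like cells 2 of the 9 had a UMI, 47 UMIs in all, of which 43 were SCG5.

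Between the groups, the stromal-like ABCC8 count was that of the contrast by which the gene was chosen. Control replicates 1, 2 and 3 held 1, 0 and 1 ABCC8 UMIs (1.33, 0 and 0.513 CPM). Asthma replicates 8, 10 and 11 held 23, 46 and 115 (12.5, 33.2 and 36.8 CPM). Every asthma library was thus above every control library, as were 27.0% of the 9602 genes tested in stromal-like cells, and asthma replicate 8 was the lowest of the asthma group. Per UMI of the class, the ratio of asthma to control was 51.1 (95% counting interval 13.9 to 425), a width that comes from the 2 control UMIs.

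The number of cells that carry ABCC8 differed along with it. The control replicates 1, 2 and 3 had 4, 0 and 3 SEMA3G-led cells, whereas asthma replicates 8, 10 and 11 had 73, 62 and 182, which was 2.65%, 0% and 0.783% against 19.3%, 18.2% and 19.3% of stromal-like cells. Capillary EC-like cells numbered 8, 13 and 6 against 103, 124 and 96. Their share of stromal-like cells was 5.70% ± 4.35 in control and 24.6% ± 13.3 in asthma (SD, n = 3 each). An exact permutation test, two-sided, gave p = 0.2, where 0.1 is the smallest p that 20 assignments allow. Adjusted over this test and that of pericyte-like cells, p was 0.2.

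**Figure D2:**
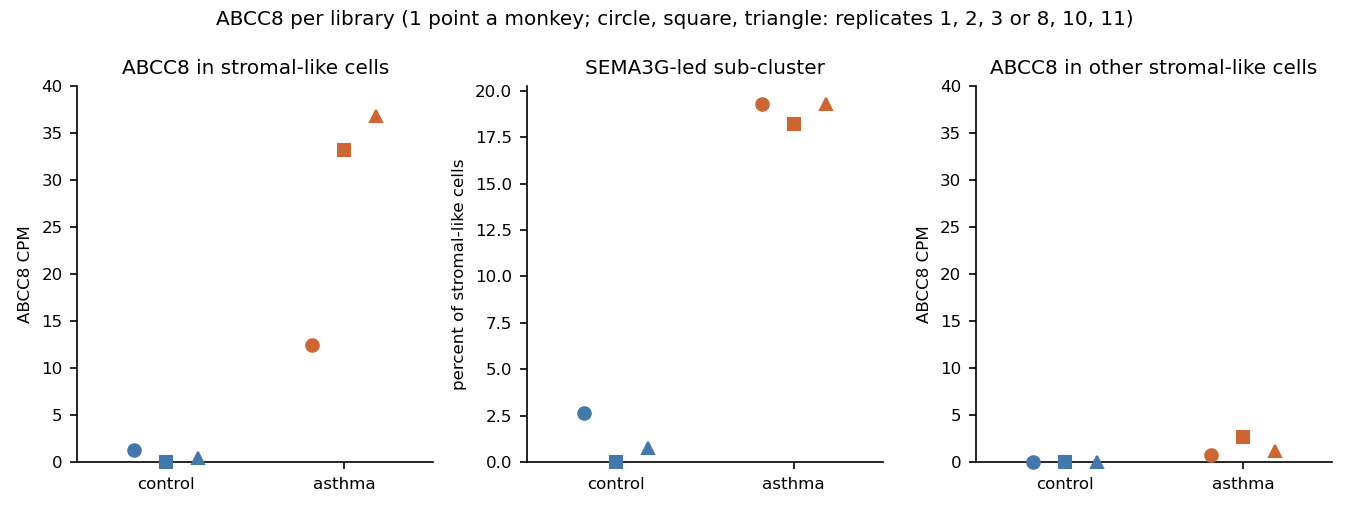
ABCC8 in stromal-like cells (CPM), SEMA3G-led cells as a percent of stromal-like cells, and ABCC8 in stromal-like cells without SEMA3G-led and capillary EC-like cells (CPM), 1 point per library. Asthma libraries lie between 12.5 and 36.8 CPM in the first panel and between 18.2% and 19.3% in the second, and no library passes 2.75 CPM in the third.

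Within SEMA3G-led cells the difference was smaller than its counting error. The 4 and 3 cells of control replicates 1 and 3 held 1 ABCC8 UMI each (48.0 and 148 CPM), against 104, 150 and 205 CPM in asthma replicates 8, 10 and 11. The values overlap, and the ratio of asthma to control was 2.36 with an interval from 0.642 to 19.7. The level of ABCC8 per SEMA3G-led cell in control lungs therefore rests on 7 cells and 2 UMIs.

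In capillary EC-like cells, asthma replicates 8, 10 and 11 held 3, 16 and 14 ABCC8 UMIs (9.26, 34.1 and 57.1 CPM) and the 27 control cells held 0. These cells yielded 48886 UMIs in all, and 3 UMIs there would be 61.4 CPM, above every asthma library, so a difference was not detectable at this depth. Outside both sub-clusters, the 1651 other stromal-like cells held 0 ABCC8 UMIs in control and 1, 2 and 3 in asthma replicates 8, 10 and 11. How much of the stromal-like difference belongs to cell numbers was not tested. Neither SEMA3G-led nor capillary EC-like cells had enough control cells for a test.

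KCNJ8, the pore subunit of the vascular channel, was highest in pericyte-like cells with the libraries pooled, at 225 CPM (95% counting interval 178 to 280). Smooth muscle-like cells followed at 79.8 CPM (44.7 to 132), unnamed ITGA8-led stromal cells at 71.7 CPM (31.0 to 141) and RBP4-led fibroblast-like cells at 42.8 CPM (33.3 to 54.1), and these 3 neighbours did not differ beyond their intervals. F5-led larger-vessel EC-like and CCL11-led fibroblast-like cells were at 18.8 and 18.2 CPM, and mesothelial-like cells at 3.53 CPM. Unnamed ASIP-led stromal cells held 1 KCNJ8 UMI in asthma replicate 8 (112 CPM) and 3 in asthma replicate 11 (32.6 CPM), too few to place them. These levels are pooled over libraries of unequal weight. Smooth muscle-like cells held 0, 3 and 6 KCNJ8 UMIs in control replicates 1, 2 and 3 (0, 333 and 55.1 CPM), from 5, 5 and 39 cells. In asthma replicates 8, 10 and 11 they held 1, 0 and 5 (76.8, 0 and 149 CPM), from 6, 2 and 13 cells. In asthma replicates 8 and 11 this was below the pericyte-like level, though from 1 and 5 UMIs. For the 2 cells of asthma replicate 10, 3 UMIs would be 448 CPM, above the pericyte-like level there, so a difference was not detectable. With 2 pericyte-like cells the control libraries allow no such comparison.

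ABCC9, the other sulfonylurea receptor, was also highest in pericyte-like cells with the libraries pooled. Below them the intervals of ITGA8-led, RBP4-led fibroblast-like and smooth muscle-like cells overlapped, so an order that differs from that of KCNJ8 is not shown. Pericyte-like cells were at 255 CPM (206 to 314), ITGA8-led cells at 80.7 CPM (36.9 to 153), RBP4-led fibroblast-like cells at 78.1 CPM (65.1 to 93.0), smooth muscle-like cells at 31.9 CPM (11.7 to 69.5), CCL11-led fibroblast-like cells at 31.4 CPM (24.8 to 39.3) and mesothelial-like cells at 10.1 CPM (7.83 to 12.9). F5-led larger-vessel EC-like cells were lower for ABCC9, at 5.71 CPM from 7 UMIs. SEMA3G-led and capillary EC-like cells held 0 ABCC9 UMIs and 1 KCNJ8 UMI, the reverse of ABCC8. T and NK-like cells had 5 UMIs of each gene, 0.127 CPM.

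Pericyte-like cells were named from a marker list that holds COX4I2, HIGD1B, NOTCH3 and PDGFRB. PDGFRB, the receptor that marks pericytes, was at 3010 CPM there, which is no support apart from the naming. ABCC9 was at 300, 305 and 250 CPM in asthma replicates 8, 10 and 11, from 3, 12 and 76 UMIs in 7, 25 and 124 cells. KCNJ8 was at 300, 127 and 237 CPM, from 3, 5 and 72 UMIs. The 2 control cells held 0 UMIs of either gene, which says nothing of their level there. A UMI of ABCC9 was seen in 61 (38.6%) and of KCNJ8 in 51 (32.3%) of the 158 cells, against 0.0493% and 0.0395% of T and NK-like cells.

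The share of pericyte-like cells among stromal-like cells was 0.662%, 0% and 0.261% in control replicates 1, 2 and 3, whereas it was 1.85%, 7.33% and 13.1% in asthma replicates 8, 10 and 11. The difference of 7.13 percentage points had the smallest p that 6 libraries allow (two-sided exact permutation test, p = 0.1, adjusted p = 0.2 over 2 tests), and was 4.28 points without asthma replicate 11. Glial genes were summed in these cells, at 300, 152 and 109 CPM in asthma replicates 8, 10 and 11, and their part in the levels was not tested. Of the 6 genes 2 had UMIs there, 42 in all, of which 40 were CDH19, and SOX10, S100B and NCAM1 were among those at 0.

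Fibroblasts, the matrix-producing cells, formed an RBP4-led sub-cluster of 245 cells, with PCOLCE2, MYOC and SFRP2 among its leading genes, and a CCL11-led one of 415 cells, with DPT, C3 and PTGDS. RBP4-led cells held more of both subunits. The intervals of the sub-clusters did not overlap for ABCC9 (65.1 to 93.0 against 24.8 to 39.3 CPM) or for KCNJ8 (33.3 to 54.1 against 13.2 to 24.4 CPM).

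Among all fibroblast-like cells, ABCC9 was at 58.0, 65.9 and 66.6 CPM in control replicates 1, 2 and 3 and at 25.9, 54.4 and 41.0 CPM in asthma replicates 8, 10 and 11. Every asthma library was below every control library, as were 3.79% of the 6598 genes tested there. The fitted log2 fold change of ABCC9 was -0.86 (standard error 0.28). KCNJ8 was at 58.0, 43.4 and 28.4 CPM in the control libraries and at 14.4, 29.9 and 21.3 CPM in asthma, so that the groups overlapped, with a log2 fold change of -1.09 (standard error 0.37). The counting ratio of asthma to control was 0.593 (0.444 to 0.789) for ABCC9 and 0.547 (0.368 to 0.807) for KCNJ8.

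Within each sub-cluster the groups overlapped and the counting intervals of the ratios held 1. In RBP4-led cells, ABCC9 was at 81.9, 83.5 and 76.6 CPM in control replicates 1, 2 and 3 and at 64.4 and 90.0 CPM in asthma replicates 8 and 10, a ratio of 0.923 (0.571 to 1.44). KCNJ8 was at 70.9, 51.2 and 32.0 CPM against 41.4 and 40.9 CPM, a ratio of 0.949 (0.487 to 1.73). In CCL11-led cells the ratio was 1.20 (0.652 to 2.37) for ABCC9 and 0.741 (0.365 to 1.62) for KCNJ8. The control replicates 1, 2 and 3 had 29, 49 and 126 RBP4-led cells, whereas asthma replicates 8, 10 and 11 had 22, 18 and 1, which was 30.2% ± 9.96 against 3.73% ± 3.15 of stromal-like cells (SD, n = 3 each). CCL11-led cells, the sub-cluster with the lower level, numbered 15, 30 and 38 against 56, 42 and 234, which was 14.5% ± 7.91 and 17.3% ± 6.61 of stromal-like cells.

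**Figure D3:**
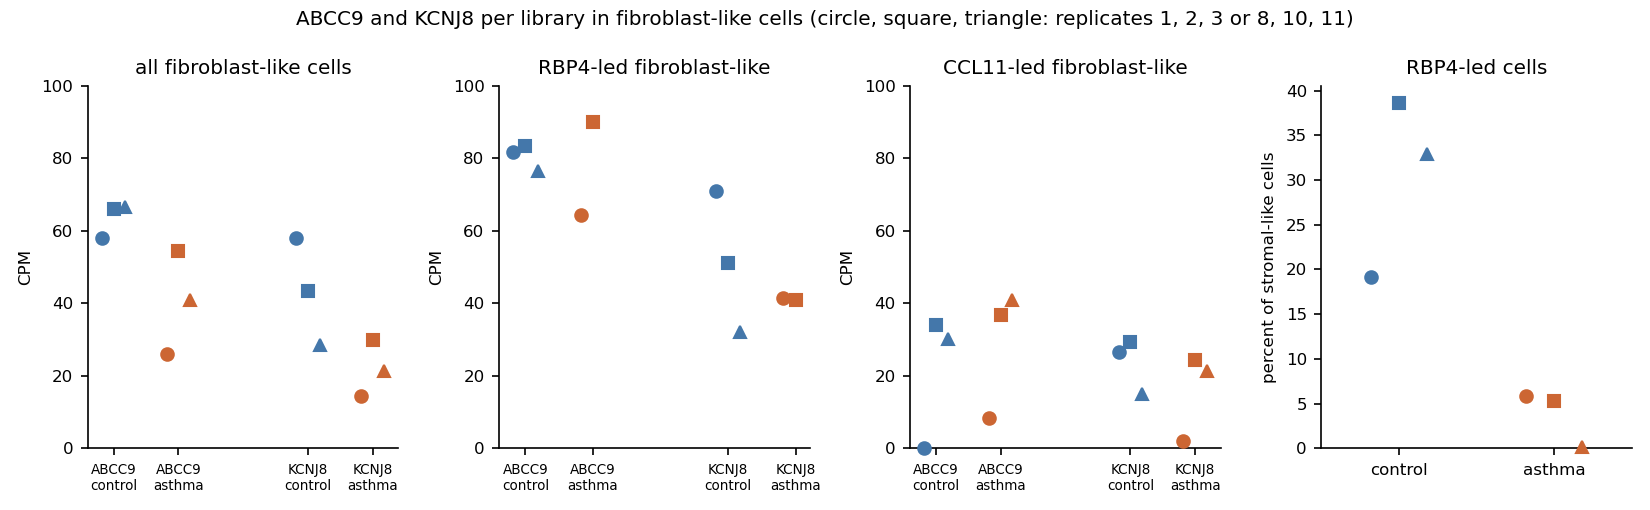
ABCC9 and KCNJ8 (CPM) per library in all fibroblast-like cells and in the RBP4-led and CCL11-led sub-clusters, for libraries with at least 10 cells, and RBP4-led cells as a percent of stromal-like cells. ABCC9 lies lower in asthma over all fibroblast-like cells, overlaps between the groups within each sub-cluster, and the RBP4-led share is lower in every asthma library.

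Over all stromal-like cells both subunits overlapped between the groups. ABCC9 was at 25.2, 46.2 and 33.8 CPM in the control libraries, against 13.0, 26.0 and 45.4 CPM in the asthma libraries, and KCNJ8 at 19.9, 34.1 and 25.1 CPM against 8.15, 15.2 and 38.4 CPM. Of the 9602 genes tested, 4.13% were lower in every asthma library. The fitted log2 fold changes were -0.55 (standard error 0.42) and -0.56 (standard error 0.50). The counting ratio of asthma to control was 0.911 (0.725 to 1.15) for ABCC9 and 0.941 (0.723 to 1.23) for KCNJ8. Outside SEMA3G-led and capillary EC-like cells it lay on the other side of 1, at 1.27 (1.01 to 1.6) and 1.30 (0.999 to 1.70). Asthma replicate 11, the asthma library with the most UMIs of both genes, gave 2402942 of the 4466099 asthma UMIs of these cells. That the ratios lie above 1 rests on this library.

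Smooth muscle-like cells, 70 in all and 39 of them from control replicate 3, held 15 KCNJ8 and 6 ABCC9 UMIs. F5-led larger-vessel EC-like cells, with BMX, DKK2 and HEY2 among their leading genes, held all but 1 of the 24 KCNJ8 UMIs of the endothelial sub-clusters. They held 23 KCNJ8 UMIs, 15 in control replicate 3 (24.3 CPM) and 4 each in asthma replicates 10 and 11 (38.6 and 39.6 CPM), and 0 in the other libraries, where control replicates 1 and 2 had 10 and 4 such cells and asthma replicate 8 had 45. TAC1-led larger-vessel EC-like cells held 0 KCNJ8 UMIs.

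Mesothelial-like cells held 66 ABCC9 and 23 KCNJ8 UMIs. ABCC9 was at 2.42, 15.4 and 25.7 CPM in control replicates 1, 2 and 3 and at 12.5, 2.41 and 23.5 CPM in asthma replicates 8, 10 and 11, so the groups overlapped, whereas 7.42% of the 5403 genes tested there were higher and 2.81% lower in every asthma library. Of the 66 UMIs, 25 lay in a CSRP2-led sub-cluster, 94 of whose 111 cells and 24 of whose ABCC9 UMIs came from asthma replicate 8.

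The balance of pore and receptor was compared as KCNJ8 in percent of the UMIs of both genes, which needs no scale between the genes when it is set across cell groups. It was 46.8% in pericyte-like cells (exact 95% binomial interval 39.1 to 54.6, 171 UMIs), 35.4% in RBP4-led (28.7 to 42.5, 195 UMIs) and 36.7% in CCL11-led fibroblast-like cells (28.1 to 46.0, 120 UMIs). Mesothelial-like cells had the lowest of these groups, 25.8% (17.1 to 36.2, 89 UMIs). F5-led larger-vessel EC-like and smooth muscle-like cells had the highest, 76.7% (57.7 to 90.1, 30 UMIs) and 71.4% (47.8 to 88.7, 21 UMIs). Library and cell group are mixed in these shares, since 15 of the 23 KCNJ8 UMIs of F5-led cells came from control replicate 3 and 72 of the 80 of pericyte-like cells from asthma replicate 11. In F5-led cells, control replicate 3 held 15 KCNJ8 and 1 ABCC9 UMIs, asthma replicate 10 held 4 and 3 and asthma replicate 11 held 4 and 0, while control replicate 1 had 0 and 2 and asthma replicate 8 had 0 and 1. Pericyte-like cells held 3 KCNJ8 UMIs of the 6 of both genes in asthma replicate 8, 5 of 17 (29.4%) in asthma replicate 10 and 72 of 148 (48.6%) in asthma replicate 11. Mesothelial-like cells held 1 of 13 (7.69%) in control replicate 3 and 12 of 49 (24.5%) in asthma replicate 8, and at most 9 UMIs of both genes in each other library. The intervals cover counting error only, and whether the order holds across libraries was not tested.

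UMIs of both genes were seen in the same cell in 22 of 158 pericyte-like cells, 26 of 245 RBP4-led and 5 of 415 CCL11-led fibroblast-like cells. Of the pericyte-like cells with KCNJ8, 43.1% also had ABCC9, against 38.6% of all pericyte-like cells, and of the RBP4-led cells with KCNJ8 45.6%, against 36.3% of all. By library, both genes were seen in 1, 1 and 20 pericyte-like cells of asthma replicates 8, 10 and 11. Without asthma replicate 11, an alternative added after seeing the data, the cells with both were 2 of 34 pericyte-like (5.88%) and 26 of 244 RBP4-led cells (10.7%), against 13.9% and 10.6% with it, so the order of these groups rests on that library. ABCC8 shared a cell with KCNJ8 in 1 of 2325 stromal-like cells and with ABCC9 in 0. At 1 UMI in most positive cells, a gene without a UMI in a cell may still be expressed there.

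**Figure D4:**
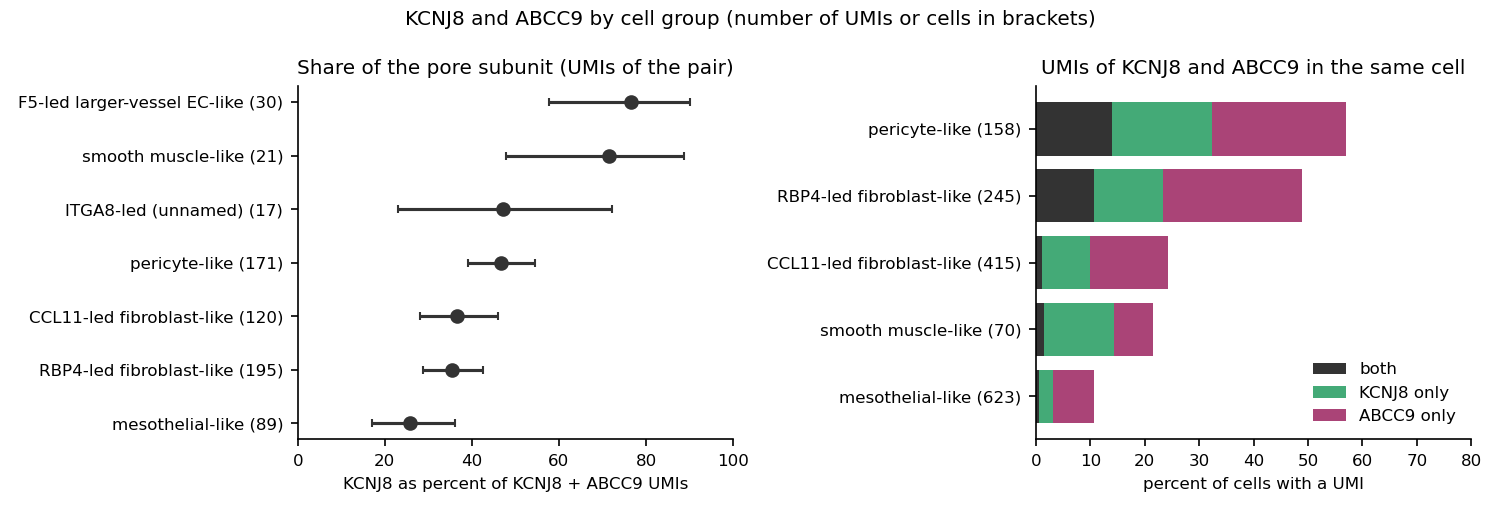
KCNJ8 in percent of the KCNJ8 and ABCC9 UMIs of a cell group with exact 95% binomial intervals (left, number of UMIs in brackets), and percent of cells with UMIs of both genes, of KCNJ8 only or of ABCC9 only (right, number of cells in brackets). The pore share runs from 25.8% in mesothelial-like to 76.7% in F5-led larger-vessel EC-like cells, and cells with both genes were 22 of 158 pericyte-like cells, 20 of them from asthma replicate 11, and 26 of 245 RBP4-led cells.

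The genes whose level was most like that of each subunit were ranked over 20 cell groups by the correlation of log2(CPM + 10), among 12849 genes with at least 50 UMIs. These correlations are a description, since the groups share their libraries and rest on few UMIs. ABCC8 was nearest to TMEM155 (r = 0.983), ESM1 (0.978), an endothelial proteoglycan, TOX3 (0.959), GPIHBP1 (0.958), which holds lipoprotein lipase on capillaries, and LRRC36 (0.948). ABCC9 was nearest to SLIT2 (0.959), KCNJ8 (0.955), ECRG4 (0.895), PDGFRB (0.879) and MAP1A (0.878). KCNJ8 was nearest to ABCC9 (0.955), SLIT2 (0.921), PDGFRB (0.908), HIBADH (0.891) and PTH1R (0.881), the parathyroid hormone receptor. ABCC8 and ABCC9 had r = -0.194.

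Related genes were taken from 6 lists. Of 13 other inward rectifiers 11 had a row in the files and 9 a UMI, and none passed the filter on low counts in stromal-like cells. KCNJ15 was highest in epithelial-like cells (17.8 CPM, 98 UMIs). Of the other ABCC transporters, ABCC4, an exporter of cyclic nucleotides, was highest in pericyte-like cells (444 CPM, 158 UMIs), and CFTR, the chloride channel, in epithelial-like cells (31.3 CPM).

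Channels and receptors around the KCNJ8 and ABCC9 pair were counted by the cell group in which they were highest, and the list genes named by their levels were picked as examples after their values were seen. Of 19 other membrane-potential channels with at least 50 UMIs, 4 were highest in pericyte-like cells, a share of 21.1%, against 11.7% of all genes compared in this way. Among them were KCNK3 (999 CPM), an acid-sensitive background potassium channel, TRPC6 (657 CPM), a cation channel that was also on the marker list for pericytes, and CACNA1H (185 CPM), a T-type calcium channel. Another 4 were highest in smooth muscle-like cells, again 21.1%, against 6.88% of all genes, among them KCNMB1 (128 CPM), a subunit of the large-conductance potassium channel. Of 24 vasodilator genes, 4 were highest in pericyte-like cells (16.7%, near the 11.7% of all genes) and 1 in smooth muscle-like cells (4.17%, against 6.88%). Of 9 vasoconstrictor genes, 3 were highest in pericyte-like cells (33.3%, against 11.7%) and 4 in capillary EC-like cells (44.4%, against 5.47%). In smooth muscle-like cells 0 of these 9 were highest, against 6.88% of all genes, and 9 genes are too few to read this as a difference. In pericyte-like cells the nitric oxide receptor genes GUCY1A1 and GUCY1B1 were at 606 and 570 CPM, PRKG1, the kinase below them, at 152 CPM, and AGTR1, the angiotensin receptor, at 109 CPM.

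Of 24 vasodilator genes with at least 50 UMIs, 2 were highest in SEMA3G-led cells (8.33%, against 5.34% of all genes compared) and 4 in capillary EC-like cells (16.7%, against 5.47%), of which RAMP3 was a marker for capillary cells and RAMP2 for stromal cells. CALCRL, which forms the adrenomedullin receptor with RAMP2 or RAMP3, was highest in SEMA3G-led cells (336 CPM). RAMP2 was at 4172 CPM and VIPR1, a receptor for vasoactive intestinal peptide, at 419.5 CPM there, against 5514 and 745 CPM in capillary EC-like cells. NOS3, which makes nitric oxide in endothelium, was at 70.9 CPM in SEMA3G-led and 244 CPM in F5-led cells.

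The lists were tested between the groups in the 3 classes that hold at least 10% of a subunit's UMIs and have enough cells (edgeR's quasi-likelihood test, called where the adjusted p was under 0.05 and the log2 fold change over 0.25 in size). They were chosen with earlier results of these data known, so the shares and calls of list genes are a description. In stromal-like cells 89 of 9602 genes rose in asthma (0.927%) and 55 fell (0.573%). Of 46 list genes tested, out of 100 listed, 1 rose and 0 fell, 15 had an unadjusted p under 0.05 (32.6%) and DESeq2 called 8 (17.4%). Of all genes tested there, 1791 had an unadjusted p under 0.05 (18.7%) and DESeq2 called 441 (4.59%). Of the 4 subunits, ABCC8, ABCC9 and KCNJ8 passed the filter on low counts in this class, ABCC9 and KCNJ8 in fibroblast-like cells, and none in mesothelial-like cells.

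RAMP3, which turns CALCRL into an adrenomedullin receptor, was the gene that rose. It was at 160, 151 and 55.6 CPM in control replicates 1, 2 and 3 and at 1029, 1298 and 784 CPM in asthma replicates 8, 10 and 11 after TMM scaling, with no overlap. The log2 fold change was 3.11 (standard error 0.41), with an adjusted p of 0.0195 in edgeR's test. Its list was chosen with earlier results of these data known. RAMP3 is also a marker by which capillary EC-like cells were named, and 3830 CPM of it were found there and 2745 CPM in SEMA3G-led cells, the sub-clusters with more cells in asthma. Within these sub-clusters the groups overlapped. In capillary EC-like cells RAMP3 was at 3388, 2489 and 3419 CPM in the control libraries, against 4372, 3152 and 4597 CPM in asthma. SEMA3G-led cells of control replicates 1 and 3 held 1729 and 2363 CPM, whereas those of asthma replicates 8, 10 and 11 held 2595, 2171 and 3074 CPM. In the other stromal-like cells RAMP3 was at 33.5, 51.6 and 31.5 CPM in the control libraries. The asthma libraries held 56.9, 87.9 and 57.8 CPM there, so in these cells the groups did not overlap. Over all stromal-like cells, 27.0% of the 9602 genes tested were higher in every asthma library. The share of such genes in the other stromal-like cells was not counted. The part of cell numbers in the call was not tested. The call was lost without control replicate 2 (log2 fold change 3.31), control replicate 3 (2.73) or asthma replicate 10 (2.92).

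By list, stromal-like medians of the log2 fold change lay at 0.49 for the 4 ABCC transporters tested, 0.49 for the 18 vasodilator genes, 1.54 for the 6 vasoconstrictor genes, 0.14 for the 10 other channels and -0.07 for the 8 genes of ATP and glucose sensing, against 0.01 for all genes tested. The vasoconstrictor list holds receptors such as that for angiotensin, kinases below them, and also CAV1. It had 4 of its 6 genes at an unadjusted p under 0.05 (66.7%) and 3 called by DESeq2, against 18.7% and 4.59% of all genes tested. None of them passed edgeR's test after adjustment. Of its 9 genes with at least 50 UMIs, CAV1, EDNRB, PRKCE and TBXA2R were highest in capillary EC-like cells (44.4%, against 5.47% of all genes compared). EDNRB is also a marker for capillary EC-like cells. Those cells made up 5.70% of stromal-like cells in control and 24.6% in asthma, and their part in these values was not tested.

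In fibroblast-like cells 9 of 6598 genes rose (0.136%) and 16 fell (0.242%), and in mesothelial-like cells 2 of 5403 rose (0.0370%) and 0 fell (0.00%). None of the 26 list genes tested in fibroblast-like cells was called by edgeR, 7 had an unadjusted p under 0.05 (26.9%) and DESeq2 called 4 (15.4%), against 652 (9.88%) and 65 (0.985%) of all genes tested. The 3 vasoconstrictor genes tested there had a median of 1.53, with 2 at an unadjusted p under 0.05 and 1 called by DESeq2, and the part of the differing shares of RBP4-led and CCL11-led cells in these values was not tested. None of the 19 tested in mesothelial-like cells was called by edgeR, 3 had an unadjusted p under 0.05 (15.8%) and DESeq2 called 0, against 197 (3.65%) and 5 (0.0925%) of all genes tested. The median of the 3 vasoconstrictor genes was -0.11 there, with 0 at an unadjusted p under 0.05.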

How the data were processed

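Droplet-based 3′ libraries were made from 1 lung sample per monkey. The authors deposited UMI counts per gene and barcode, made with Cell Ranger against macFas6. The sources differ on the version, and the submitters' processing notes give 2.1.1. The kept cells had 500 to 5000 genes, 500 or more UMIs and a mitochondrial share up to 25% (total UMIs per library 29014556 to 41489879), and were clustered with scanpy 1.11.5 (2000 variable genes without the subunits, 10 components, resolution 0.8). Scrublet's own threshold marked 10 cells (0.0413%), which has not worked, so doublets were removed only as an alternative. Counts summed per library were tested with edgeR 4.0.16 (TMM, filterByExpr, quasi-likelihood, Benjamini-Hochberg) in classes with at least 10 cells per library. The edgeR test was tried on simulated counts. The subunits and gene lists were chosen with earlier results of these data known. Every called list gene was to be named, or the 4 with the largest changes, and the 5 genes most like each subunit. Alternatives were a mitochondrial maximum of 10%, resolution 1.6, removal of the 793 highest doublet scores, DESeq2 1.42.0, no low-count filter, TMM scaling and leaving out each library.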

Additional observations from a re-analysis of the deposited data

Results flagged for a closer look

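Barcodes removed by quality control were not used in any comparison, and held more ABCC9 and KCNJ8 in the asthma than in the control group. ABCC9 stood at 2.52 CPM in the removed barcodes of the asthma group and at 0.309 CPM in those of the control group, from 60 and 6 UMIs. KCNJ8 stood at 1.68 and 0.103 CPM, from 40 and 2 UMIs. Of the asthma UMIs, 42 of ABCC9 and 30 of KCNJ8 were in barcodes with over 5000 genes, and 32 of ABCC9 and 26 of KCNJ8 came from asthma replicate 8. These differences were not tested.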

How the results depend on the processing

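No paired analysis was possible because the control and asthma libraries share no replicate numbers. The ABCC8 difference, asthma minus control, lay between 22.3 and 34.4 CPM over the alternatives in stromal-like cells, the value by which the gene was chosen, and between 23.9 and 42.0 CPM in capillary EC-like cells, where the control group held 0 UMIs. The difference in share lay between 4.28 and 9.93 percentage points for pericyte-like and between 13.0 and 26.1 for capillary EC-like cells, and 3 libraries a group cannot pass a threshold of 0.05. None of these values says anything about stability. The share of SEMA3G-led cells, asthma minus control, was 17.8 percentage points and 19.7 at resolution 1.6, an alternative added after seeing the data. Counts of changed genes moved most. In stromal-like cells 144 genes were called, 441 by DESeq2, 575 with no filter on low counts and between 0 and 370 with 1 library left out (0 without asthma replicate 10, 370 without asthma replicate 11, 3 without control replicate 3). In fibroblast-like cells 25 were called, 65 by DESeq2, 57 at a mitochondrial maximum of 10%, 364 with no filter and between 0 and 73 with 1 library left out (0 without control replicate 3, 73 without asthma replicate 8). In mesothelial-like cells, added after seeing the data, 2 were called, 5 by DESeq2, 0 at a mitochondrial maximum of 10%, 67 with no filter and between 0 and 4 with 1 library left out (4 without asthma replicate 8). The causes were not tested. The differences of KCNJ8 and ABCC9 in pericyte-like cells have no value, since the control group held 2 such cells, and few control endothelial cells limit what can be said of ABCC8 per cell.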
